A study of Mus musculus with 3 samples.

Results

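The genes described here are Six2, Six4, Six5, Eya1, Eya2, Eya3, Eya4, Dach1 and Dach2, which encode members of a network of nuclear regulators named after fly eye genes. They were chosen by symbol, as 9 of the 20308 rows of a table of transcript levels, by a rule that names symbols and uses no measured value, though earlier results of these data were known when the genes were picked. The levels come from RNA sequencing of satellite cells, which are the stem cells that lie on muscle fibres, from mice of the Pax7-ZsGreen strain aged 3 months. For each sample about 200000 cells positive for ZsGreen were collected by flow sorting from digested hindlimb muscle of several animals. The 3 libraries formed 1 group, so every result is a level and its spread, with no second condition. The reporter follows Pax7, so the sort fixed Pax7-expressing cells as the population, and the labels call the tissue tibialis anterior where the series description speaks of hindlimb muscles. The labels leave unsaid if the 3 samples are separate animal pools, so a p-value here reflects sample-to-sample spread that may be technical.

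The sine oculis homeobox proteins, encoded by Six2, Six4, Six5 and their relatives, are transcription factors that bind DNA but activate poorly alone. EYA proteins bind these homeobox proteins as coactivators and carry a tyrosine phosphatase domain. DACH proteins are corepressors related to SKI that can join the same complexes. In the embryo the network acts upstream of the myogenic regulatory factors, and in adult muscle it acts in satellite cells and in the fast fibre programme.

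The level unit is TPM, a share of the measured transcripts corrected for transcript length, so different genes can be set side by side. A gene was called above 1 TPM when its mean on the log2(TPM + 0.1) scale exceeded that of 1 TPM in limma (moderated test, Benjamini-Hochberg adjustment) over all 12822 genes above 0 in at least 1 library (adjusted p threshold 0.05). That scale understates the fold of low genes. Read depth is unknown, because TPM keeps no totals, and a value of 0 is reported as listed at 0. Across genes, the libraries correlated at r = 0.757 to 0.764 on the log2 scale, which is a description over 12822 genes and not over replicates. The defining markers of the labelled cell type were present: all 9 satellite cell markers were above 1 TPM and summed to 6928, 6951 and 6487 TPM in replicates 1 to 3. Markers of other muscle cells were also measured, and their counts above 1 TPM stand beside 60.8% of all genes tested. Their summed levels ranged over the libraries from 2081 to 2331 TPM for 6 fibro-adipogenic markers (5 above 1 TPM), from 1489 to 2764 TPM for 5 endothelial markers (5 above), from 221 to 336 TPM for 6 tenocyte markers (5 above) and from 225 to 267 TPM for 4 leukocyte markers (3 above). The 4 pericyte and smooth muscle markers summed to between 156 and 196 TPM (3 above), the 4 Schwann markers to between 89.4 and 116 TPM (3 above) and the 8 mature fibre markers to between 61.1 and 95.5 TPM (3 above, with Myh2 at 0 in every library). Among the fibro-adipogenic markers, Pdgfra was undecided (4.98, 0.11 and 0.06 TPM in replicates 1 to 3). The highest of that list were Gsn (888 ± 104 TPM), Col3a1 (585 ± 29.9 TPM) and Dpt (572 ± 16.7 TPM). In sorted bulk RNA, fewer cells of a type and less RNA per cell cannot be told apart, and the part of these other cells in the member levels was not tested.

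By mean TPM, Eya1 and Eya4 stood highest of the 9 genes, and Six4 and Dach1 followed at lower levels. This order did not hold in replicate 3, where Eya2 (15.68 TPM) exceeded Eya1 (10.47 TPM), Six4 (9.5 TPM) and Dach1 (4.56 TPM). Eya1, Eya4, Six4 and Dach1 were above 0 in every library and above 1 TPM (limma, Benjamini-Hochberg). Of the 8 members tested, 4 were called above 1 TPM, 0 below it and 4 were undecided. Over all genes tested the call above 1 TPM was made for 60.8%, against 50% of the 8 members, so the members' share lay near the background. Against thresholds of 0.5 and 5 TPM, 4 and 2 members passed, beside 64.2% and 46.7% of all genes tested. The median of the 9 member means was 5.51 TPM, beside 11.5 TPM over all genes tested and 2.24 TPM over all genes in the table.

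**Figure D1:**
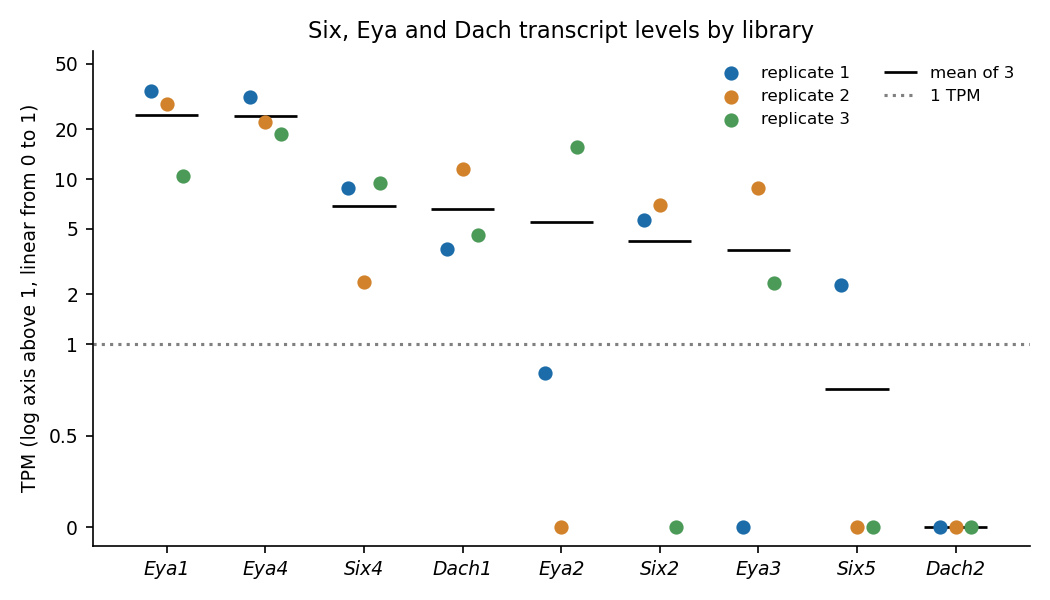
Transcript level of each member in each library (points, TPM on a vertical axis that is logarithmic above 1 and linear from 0 to 1), with the mean of the 3 libraries as a bar and a dotted line at 1 TPM. Eya1, Eya4, Six4 and Dach1 lie above the line in every library, 4 genes have at least 1 library at 0 beside others above it, and Dach2 is at 0 in each.

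Among the coactivators, the Eya genes are shown by their coding bases, because their levels can be compared only as far as reads can tell them apart. Each line gives 90 bases from the coding strand of a GENCODE M21 transcript, around the bases that encode the catalytic aspartate motif of the phosphatase domain. Capitals mark bases that differ from Eya1.
Eya1: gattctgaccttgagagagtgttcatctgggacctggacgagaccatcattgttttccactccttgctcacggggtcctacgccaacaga
Eya4: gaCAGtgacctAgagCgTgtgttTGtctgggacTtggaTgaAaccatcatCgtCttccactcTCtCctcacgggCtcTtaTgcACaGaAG
Eya2: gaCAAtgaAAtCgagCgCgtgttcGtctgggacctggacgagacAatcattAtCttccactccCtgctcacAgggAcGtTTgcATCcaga
Eya3: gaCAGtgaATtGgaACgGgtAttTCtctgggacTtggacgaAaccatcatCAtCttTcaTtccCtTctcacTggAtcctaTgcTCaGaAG
Even in this conserved stretch Eya4 differed from Eya1 at 24 bases, Eya2 at 21 and Eya3 at 29, while Eya4 and Eya3 differed at 17. From this stretch to the stop codon the 4 reading frames have the same length of 275 codons, with base identity from 66.2% (Eya2 and Eya3) to 75.8% (Eya1 and Eya4). The longest run of identical bases between coding transcripts of any pair of Eya genes was 29 bases, for Eya2 and Eya3. Of the 31-base words in the longest coding transcript, 0.3% of those of Eya1 and 0.136% of those of Eya3 also occurred in a transcript of another gene on the same strand, and 0% of those of Eya2 and Eya4. No exon base of any of the 9 genes overlapped an exon of another annotated gene.

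Eya1 (chromosome 1, 14168954 to 14310235, minus strand, GRCm38) was at 33.99, 28.69 and 10.47 TPM in replicates 1, 2 and 3. Replicate 3 was the lowest and the other two lay close together. The mean was 24.4 ± 12.3 TPM (SD, n = 3), which exceeded 1 TPM by 4.31 ± 0.366 (SE) on the log2 scale (limma adjusted p = 2.88e-06). Its rank among all genes in the table fell at percentile 82.0, 79.8 and 68.1 in the 3 libraries. Eya1 is a coactivator known from embryonic muscle, kidney and ear.

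Eya4 (chromosome 10, 23102963 to 23350786, minus strand) was at 31.26, 22.19 and 18.79 TPM. It had the smallest log2 SD of the members above 0, and its values overlapped those of Eya1. Its mean of 24.1 ± 6.45 TPM exceeded 1 TPM by 4.43 ± 0.272 (SE) on the log2 scale (limma adjusted p = 2.26e-07), at percentiles 81.0, 76.7 and 75.4 of the table. Eya1 exceeded Eya4 in 2 of 3 libraries, and the mean log2 ratio of -0.12 ± 0.637 (SD) was smaller in size than its SD. The exact sign-flip permutation test (p = 1, two-sided) could not decide if the pair differed, because 3 libraries allow no p below 0.25. Eya4 is the family member known for its part in hearing and in the heart.

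Eya2, a coactivator known from limb muscle precursors, was at 0.84, 0 and 15.68 TPM. Replicate 3 alone carried nearly all of its mean of 5.51 ± 8.82 TPM, and Eya2 there exceeded Eya1. The level was undecided against 1 TPM (limma adjusted p = 0.982). Eya2 (chromosome 2, 165595032 to 165771727, plus strand) has 16 exons in its longest coding transcript.

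Eya3, the member with the broadest expression across tissues, was at 0, 8.82 and 2.36 TPM (mean 3.73 ± 4.57 TPM), undecided by limma (adjusted p = 0.913). It was listed at 0 in the library where Eya1 and Eya4 were highest. Its gene spans chromosome 4, 132638987 to 132724765, on the plus strand.

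The libraries differed in which Eya genes made up the Eya transcripts. The 4 genes together gave 66.1, 59.7 and 47.3 TPM, a mean of 57.7 ± 9.55 TPM. Eya1 and Eya4 held 98.7%, 85.2% and 61.9% of that sum in replicates 1 to 3. Eya1 alone held 51.4%, 48.1% and 22.1%, whereas Eya4 held 47.3%, 37.2% and 39.7%. In replicate 3 Eya2 held 33.2%, against 1.27% and 0% in replicates 1 and 2. Summed endothelial markers were highest in the same library, at 1847, 1489 and 2764 TPM in replicates 1 to 3. Fabp4 supplied most of that sum (1749.98, 1355.83 and 2587.09 TPM). The other 4 endothelial markers summed to 97.3, 133 and 177 TPM, with Cdh5 lowest in replicate 3 (34.83, 35.6 and 31.83 TPM). Pericyte and smooth muscle markers (170, 156 and 196 TPM) and Schwann markers (89.4, 98.6 and 116 TPM) were also highest in replicate 3. Satellite cell, fibro-adipogenic (2331, 2213 and 2081 TPM) and tenocyte markers (255, 336 and 221 TPM) were lowest there. The part of any of these cells in the Eya values was not tested.

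**Figure D2:**
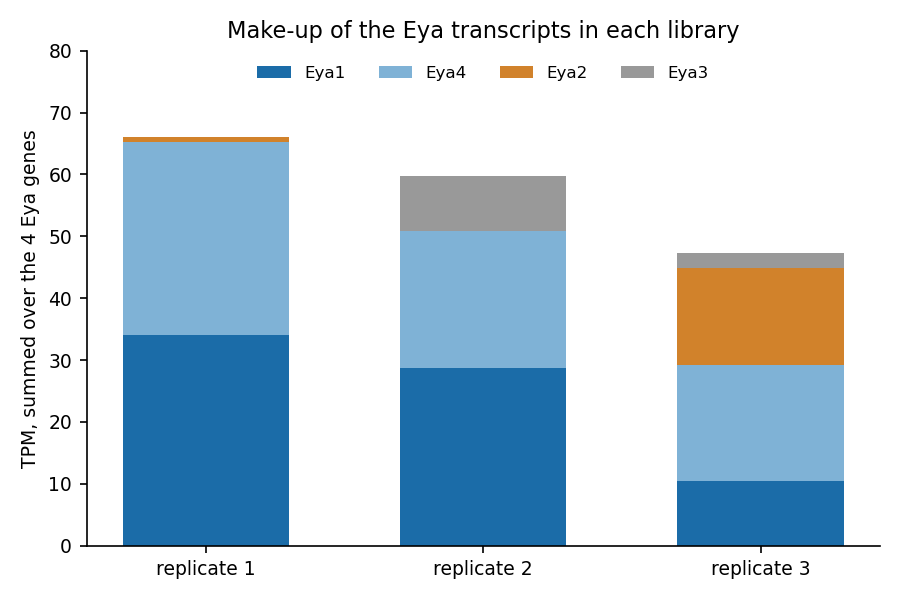
TPM of the 4 Eya genes stacked for each library, with the height of a bar giving their sum. Eya4 runs from 31.26 TPM in replicate 1 to 18.79 TPM in replicate 3, and Eya1 is smallest and Eya2 largest in replicate 3.

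Six2, Six4 and Six5 encode the DNA-binding partners. Their 90-base homeobox stretch around the recognition helix is shown because the family's longest shared runs lie there. Capitals mark bases that differ from Six4.
Six4: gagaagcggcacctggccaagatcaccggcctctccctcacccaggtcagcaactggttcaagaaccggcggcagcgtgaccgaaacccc
Six5: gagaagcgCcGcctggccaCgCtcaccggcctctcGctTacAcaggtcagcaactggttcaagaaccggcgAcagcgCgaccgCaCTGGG
Six2: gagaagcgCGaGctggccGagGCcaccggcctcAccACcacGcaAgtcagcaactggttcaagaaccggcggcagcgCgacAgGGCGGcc
Six5 differed from Six4 at 15 bases and Six2 at 18, and Six5 differed from Six2 at 21. An unbroken run of 32 bases was identical in Six4 and Six2, 29 in Six4 and Six5 and 26 in Six5 and Six2. Reads that fall wholly inside such a run cannot be told apart, but the runs are short beside coding transcripts of 1812 to 6817 bases. In all, 1.36% of the 31-base words of Six4, 1.38% of those of Six2 and 0% of those of Six5 occurred in transcripts of another gene on the same strand.

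Six4 (chromosome 12, 73099609 to 73113456, minus strand), which binds the MEF3 site of muscle promoters, was at 8.80, 2.39 and 9.50 TPM. Replicate 2 was low and the other two were alike. The mean of 6.90 ± 3.92 TPM exceeded 1 TPM by 2.44 ± 0.735 (SE) on the log2 scale (limma adjusted p = 0.0158). The call rested on replicates 1 and 3: without replicate 1 or 3 it was not made (limma adjusted p = 0.0718 and 0.0741). Without the low replicate 2 it was made (limma adjusted p = 8.1e-05). The window of 250 bases before to 50 after one of the 2 RefSeq start sites of Six4 holds the MEF3 core TCAGGTT on the opposite strand, at chr12:73113326-73113352 (GRCm38.p6, shown on the minus strand with the match in capitals).
Six4 window: gcctgggggaAACCTGAtcggccagat
That core was searched on both strands and occurs in 4.07% of 32851 such RefSeq windows. It was found in 1 of the 10 windows that belong to 7 of the members, and a match is a match of letters only. The Six4 match begins at position -97 from its RefSeq start site but lies inside the Six4 gene span given above. The window of the other Six4 start site holds no match.

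Six2, a factor known from kidney progenitors and connective tissue, was at 5.65, 6.94 and 0 TPM (mean 4.20 ± 3.69 TPM). It was similar in replicates 1 and 2 and listed at 0 in replicate 3, so the level was undecided (limma adjusted p = 0.798). Replicate 3 decided this: without it Six2 was above 1 TPM by 2.53 on the log2 scale (limma adjusted p = 0.00727). Six2 lies on chromosome 17, 85684277 to 85688274, minus strand, with 54974 bases between it and Six3. Its neighbour and paralogue Six3, a forebrain and eye gene, was listed at 0 in every library.

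Six5, a factor studied in myotonic dystrophy, was at 2.27, 0 and 0 TPM. It was above 0 in replicate 1 alone and undecided (limma adjusted p = 0.288). Six5 (chromosome 7, 19094594 to 19098549, plus strand) starts 772 bases after the end of Dmpk, the kinase gene whose repeat expands in myotonic dystrophy. The neighbours on the same strand stood at other levels. Dmpk was at 200.65, 218.91 and 220.97 TPM and Dmwd, upstream of Dmpk, was at 16.17, 49.49 and 54.92 TPM. Dmpk thus exceeded Six5 in 3 of 3 libraries with no overlap of their values. The paralogue Six6, an eye and pituitary gene, was listed at 0, 0 and 1.38 TPM. Of the 5 genes listed as genome neighbours, 3 were above 1 TPM, beside 60.8% of all genes tested. These 3 were Dmpk, Dmwd and Mnat1, a subunit of the CDK-activating kinase, at 11.6 ± 7.94 TPM. Srbd1 was undecided (above 1 TPM without replicate 3, limma adjusted p = 0.0441) and Six3 was at 0.

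The Dach genes encode the corepressor arm. Their most similar 90 coding bases are shown because one gene was present and the other listed at 0. Capitals mark bases of Dach2 that differ from Dach1.
Dach1: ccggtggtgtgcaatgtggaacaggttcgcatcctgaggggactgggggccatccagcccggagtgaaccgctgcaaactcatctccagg
Dach2: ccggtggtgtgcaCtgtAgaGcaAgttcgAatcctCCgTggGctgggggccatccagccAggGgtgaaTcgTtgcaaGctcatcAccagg
The 2 stretches differed at 15 of 90 bases, and no run longer than 20 bases was shared between their coding transcripts. Dach1 (chromosome 14, 97786853 to 98169765, minus strand) was at 3.75, 11.54 and 4.56 TPM. Replicate 2 was high and the other two were alike. Its mean of 6.62 ± 4.28 TPM exceeded 1 TPM by 2.43 ± 0.713 (SE) on the log2 scale (limma adjusted p = 0.0138), and without replicate 2 it no longer passed (adjusted p = 0.172). Dach2 (chromosome X, 113297510 to 113836386, plus strand), known from denervated muscle, was listed at 0 in all 3 libraries and was not tested. In all, 7486 of the 20308 genes were at 0 in every library.

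By mean TPM the order was Eya1, Eya4, Six4, Dach1, Eya2, Six2, Eya3, Six5 and Dach2. Of the 8 pairs of neighbours in that order, 7 had overlapping values over the 3 libraries. The exception was Eya4 over Six4, with a log2 ratio of 1.99 ± 1.10 (SD), higher in 3 of 3 libraries (exact sign-flip permutation p = 0.25, the smallest that 3 libraries allow). Of all 36 pairs of members, 16 did not overlap. Every one of these had Eya1, Eya4, Six4 or Dach1 as the higher gene. That was fixed in advance, because a member with a listed 0 cannot lie wholly above another, and only these genes had none. Six4 and Dach1 did not differ beyond their spread (log2 ratio 0.0089 ± 1.94), and in replicate 2 Six4 was at its lowest and Dach1 at its highest.

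Members listed at 0 in some libraries but not in all had the largest spread, and Eya4 the smallest of those above 0. With such a 0 the log2 spread depends on the 0.1 TPM added to each value. The SD on the log2 scale was 0.373 for Eya4 and 0.913 for Eya1, where limma's trend over genes of at least 1 TPM gave 0.515 and 0.537. Six4 lay near its trend value, at 1.09 against 1.12, and Dach1 below it, at 0.853 against 1.13. For the genes with a 0 in this range the SD was 3.46 for Six2, 3.66 for Eya2 and 3.34 for Eya3, against trend values of 2.33, 2.79 and 2.60. None of the 7 members in this test varied more than the trend by the F test on limma's variances with Benjamini-Hochberg adjustment (0 adjusted and 0 at an unadjusted p under 0.05), as against 0.0177% of 11318 genes adjusted. In simulated data the same test recovered 0% of genes with 10 times the usual SD, so it could not decide the question.

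**Figure D3:**
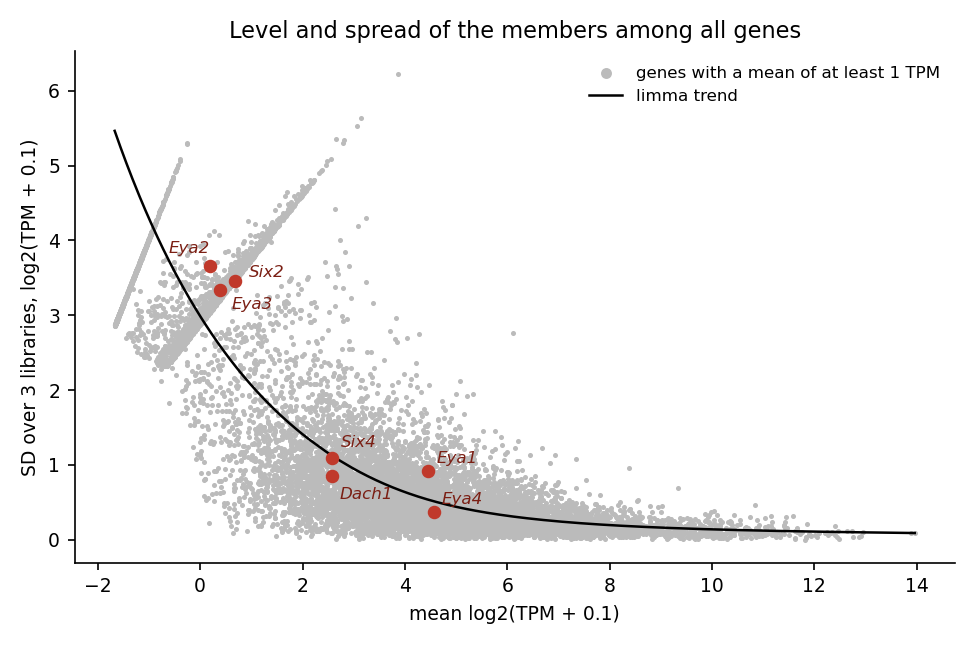
SD over the 3 libraries against mean, both on the log2(TPM + 0.1) scale, for genes averaging 1 TPM or more (grey), with limma's trend (line) and the 7 members at that level (red). Eya4, Six4 and Dach1 lie at or below the line, and Eya1, Six2, Eya2 and Eya3 above it.

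Listed zeros were common among all genes at the levels of the lower members. Among 1841 genes with a mean of 2 to 5 TPM, where Six2 and Eya3 lie, 53.1% were at 0 in at least 1 library. Between 5 and 10 TPM, where Eya2, Six4 and Dach1 lie, the share was 20.7% of 1751 genes, and 3.94% were at 0 in 2 libraries. It was 0.933% of 1715 genes between 20 and 40 TPM, the range of Eya1 and Eya4. The call above 1 TPM was made for 2.23%, 66.8% and 98.7% of genes in these ranges.

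**Figure D4:**
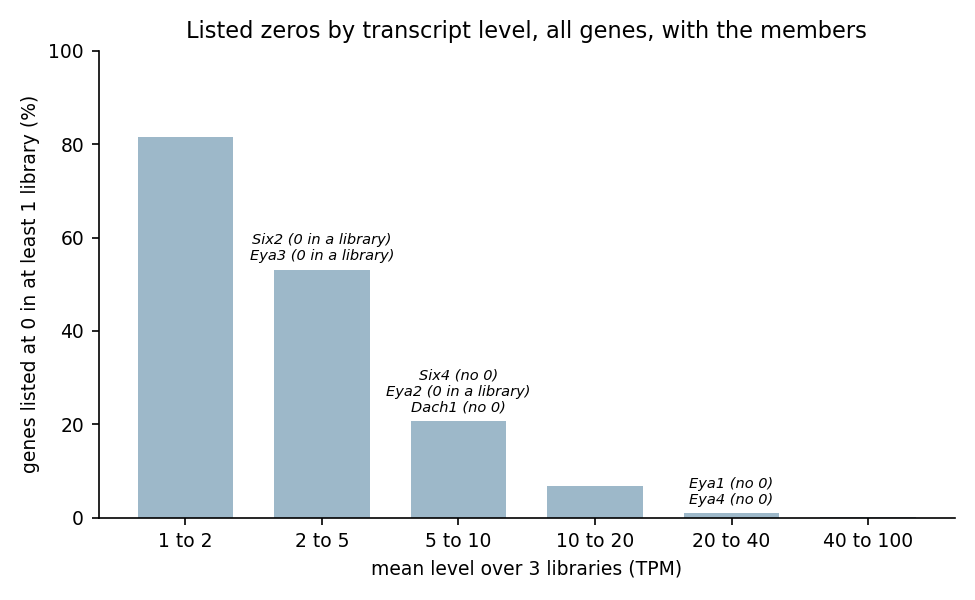
Percentage of all genes listed at 0 in at least 1 library, by mean level in TPM, with the members of each range written above its bar. Six2, Eya3 and Eya2 have a library at 0, and Six4, Dach1, Eya1 and Eya4 have none.

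Partners of the network were mostly present at higher levels than the members. The Ski genes share a domain with Dach and repress TGF-beta signalling. Skil was at 182.35, 186.98 and 193.4 TPM and Ski at 102.78, 113.02 and 107.85 TPM, each with little spread and each above every member in every library. The corepressor Ncor1 averaged 50.9 ± 7.41 TPM, the deacetylase Hdac3 33.5 ± 7.08 TPM and the scaffold Sin3a 32.7 ± 12.7 TPM. Of the 9 genes of this list, 6 were above 1 TPM (limma, Benjamini-Hochberg), beside 60.8% of all genes tested. Genes at 0 in every library were not tested but are included in such list counts. Skida1 was below 1 TPM (0, 0.09 and 0 TPM, limma adjusted p = 0.0268). It did not pass without replicate 1 (adjusted p = 0.486) or 3 (0.536) and with a pseudocount of 0.01 (0.0872), and it was listed at 0 in the rest without replicate 2. Skor1 and Skor2 were at 0. These 3 were singled out after their values were seen. The call below 1 TPM was made for 2.18% of all genes tested. The list's median was 33.5 TPM.

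Groucho corepressors bind sine oculis homeobox proteins. Of 6 genes, 3 were above 1 TPM, beside 60.8% of all genes tested. These 3 were Tle3 (78.6 ± 7.26 TPM), Tle4 (73.4 ± 26.0 TPM) and the short family member Aes (38.1 ± 11.1 TPM). Tle1 was at 0.65, 13.61 and 1.96 TPM, Tle2 at 8.07, 4.43 and 0, and Tle6 at 6.63, 0 and 0, all undecided. Tle1 passed without replicate 1 (limma adjusted p = 0.0459) and Tle2 without replicate 3 (0.0113). The list's median was 21.8 TPM.

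Of 8 other proteins reported to bind sine oculis homeobox or EYA proteins or to act with them, 7 were above 1 TPM. That stands beside 60.8% of all genes tested, and the list's median was 29.1 TPM. The G protein subunit Gnai2 led at 203 ± 25.2 TPM, followed by the chromatin remodeller Smarca2 (97.2 ± 19.9 TPM), the acetyltransferase Crebbp (76.9 ± 6.48 TPM), Smarca4 (29.7 ± 10.6 TPM), Mcrs1 (28.5 ± 5.78 TPM) and Sobp (25.5 ± 6.86 TPM), whose fly homologue binds Sine oculis. Gnaz, a nerve G protein subunit, was at 0 in every library and was named after its values were seen.

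EYA phosphatases act on a tyrosine of the histone variant H2AX, which the kinase encoded by Baz1b phosphorylates. Of 6 genes around this reaction, 5 were above 1 TPM, beside 60.8% of all genes tested, with a list median of 17.2 TPM. Baz1b was at 74.67, 45.55 and 50.23 TPM and H2afx, which encodes H2AX, at 14.01, 13.82 and 23.70 TPM. Mapk8, a stress kinase, averaged 37.6 ± 1.68 TPM, the kinase Abl1 17.2 ± 7.93 TPM and the damage adaptor Mdc1 17.1 ± 4.74 TPM. The receptor Esr2 was at 0.36, 0 and 0 TPM and was undecided.

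**Figure D5:**
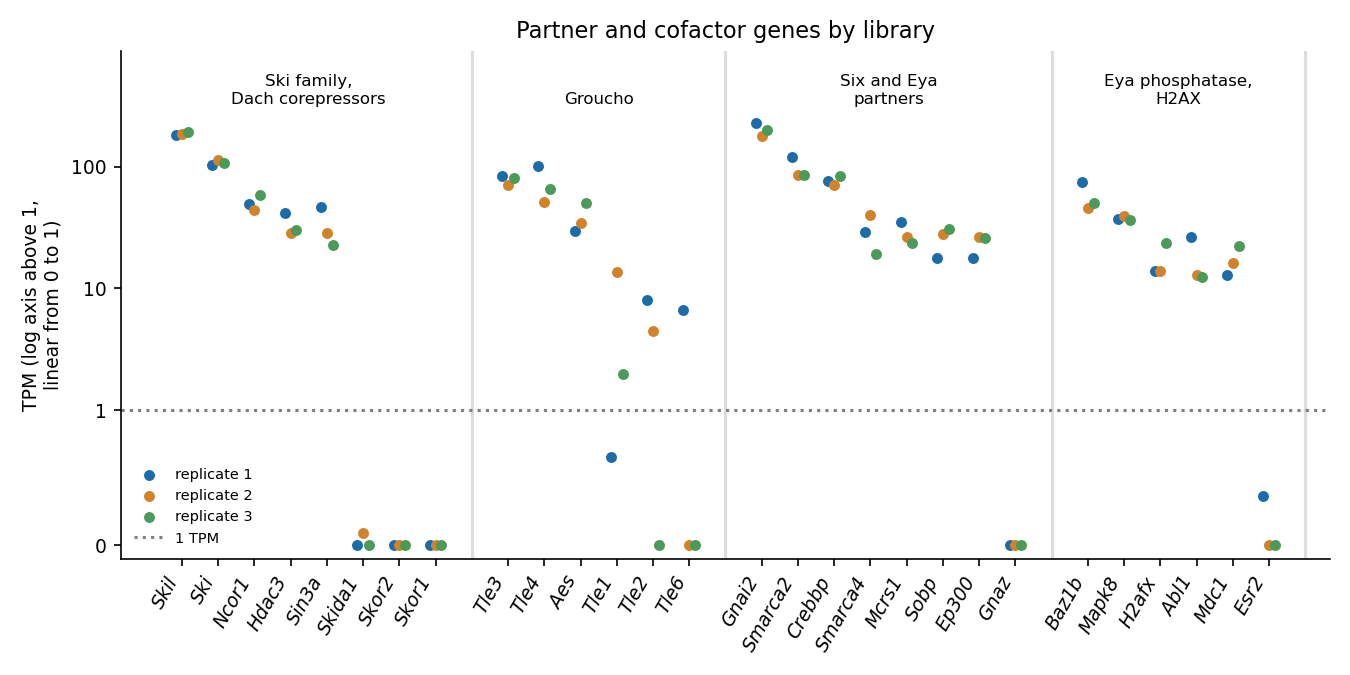
TPM of selected partner and cofactor genes in each library (points, vertical axis logarithmic above 1 and linear from 0 to 1), in 4 groups, each ordered by mean, with a dotted line at 1 TPM. Skil, Gnai2 and Ski stand highest, and Skor1, Skor2 and Gnaz are at 0 in every library.

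Of 11 factors that act upstream of or beside the network in muscle precursors, 5 were above 1 TPM, beside 60.8% of all genes tested. Of the rest, 4 were undecided and 2 (Tcf21 and Mesp1, named after their values were seen) were at 0. The list's median was 4.11 TPM. The factors above 1 TPM included Msc (107 ± 42.6 TPM), Pax7 (51.4 ± 5.22 TPM), Lbx1 (13.7 ± 1.39 TPM) and Pax3 (11.8 ± 2.70 TPM). Meox2 averaged 4.11 ± 2.07 TPM and passed without replicate 3 (limma adjusted p = 0.0328). Eya1 and Eya4 thus stood below Pax7 in each library.

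Of 24 genes reported as targets of sine oculis homeobox proteins, 18 were above 1 TPM, beside 60.8% of all genes tested. A further 5 were undecided and Ccna1 was at 0, and the list's median was 41.5 TPM. Members of this list are also driven by many other factors, and no gene of the network was altered here. Among the highest were Myod1 (1240 ± 74.5 TPM), Myc (1011 ± 69.4 TPM), the glycolytic enzyme Aldoa (553 ± 20.2 TPM), Cxcr4 (383 ± 50.3 TPM) and Igfbp5 (296 ± 53.6 TPM). Myog, whose promoter holds a MEF3 site, was at 40.68, 52.64 and 9.19 TPM, lowest in replicate 3. Myf5 (88.53, 90.85 and 131.62 TPM) and Myod1 (1159.91, 1254.47 and 1306.98 TPM) were highest in that library. The 5 undecided genes were the fast fibre genes Mylpf, Pvalb, Ckm and Myl1 and the myogenic factor Myf6, named with Ccna1 after their values were seen. The 4 fast fibre genes each passed when 1 library was left out: Ckm and Pvalb without replicate 2, Myl1 without replicate 1 and Mylpf without replicate 3.

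The genes whose 3 values lay nearest to those of the leading member of each family were found by the largest absolute difference on the log2 scale over the 3 libraries. For Eya1 they were Cul2 (31.56, 28.17 and 11.41 TPM, largest difference 0.123) and Grn (34.46, 25.92 and 9.92 TPM, 0.146). For Six4 they were Naa16 (8.71, 2.51 and 8.33 TPM, 0.188) and Sertad4 (9.71, 2.76 and 9.12 TPM, 0.20). For Dach1 they were Zfp768 (4.26, 10.61 and 4.89 TPM, 0.179) and Nadk2 (4.37, 10.01 and 4.47 TPM, 0.215). With 3 libraries of 1 group this likeness is a description of values.

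The 10 RefSeq windows of 300 bases held between 13 and 37 CpG dinucleotides, against a median of 7 over the 32851 windows. That count placed 6 of the 10 windows, those of Six4, Six5, Dach1 and Dach2, between percentiles 62.1 and 68.6 of all windows, so they stood only moderately above the middle. Six2 had the most at 37, followed by Eya4 with 36 and 28 in its 2 windows, and Dach1 the fewest at 13. Dach2, listed at 0 in every library, had 15 and 16, within the range of the members that were present.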

How the data were processed

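RNA came from sorted ZsGreen-positive cells (Picopure kit, Illumina standard library protocols, per the labels' protocols). The submitters' processing notes name mm10 as the build, and RSEM 1.2.3, Bowtie 0.12.9 and CASAVA 1.8 as tools. What each did, the annotation, the strand setting and the read length: not given in the sources used here. The authors deposited 1 table of TPM for 20308 gene symbols, 1 column per library, named as renormalised without mitochondrial genes, so each value is a share of what the table lists. TPM depends on the transcript lengths that RSEM used for each gene.

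Levels were tested in R 4.3.3 with limma 3.58.1 (intercept on log2(TPM + 0.1) against 1 TPM, two-sided, variance trend, Benjamini-Hochberg over 12822 genes). Tested on simulated data (12822 genes), it recovered 4% of genes set to 2 times the threshold, 78% at 4 times, 88% at 8 times and 98% at 16 times. Genes set this way kept the SD of their original level, so these rates do not hold for genes measured at low levels. In the measured data the call was made for 2.23% of genes averaging 2 to 5 TPM and 66.8% between 5 and 10 TPM. Positions, transcripts and 31-base words are from GENCODE M21 (GRCm38, the assembly of mm10), the coding stretches from each gene's longest open reading frame, and promoters from RefSeq (GRCm38.p6).

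The members, lists and tests were chosen with earlier results of these data known. All members are named, with the 6 highest genes of each list, stated paralogues and neighbours, and the 2 genes nearest in value to the leading member of each family. Some genes of these families are not reported here.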

Additional observations from a re-analysis of the deposited data

How the results depend on the processing

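Eya1 and Eya4 stayed above 1 TPM under all 13 alternatives, including thresholds of 0.5 and 5 TPM. The number of members above 1 TPM was 4 under each change of pseudocount, filter, scaling or variance prior. It was 3 to 4 when 1 replicate was left out, and 2 at a threshold of 5 TPM, where Six4 and Dach1 no longer passed. Without replicate 3 the 4 members were not the same ones: Six4 did not pass (limma adjusted p = 0.0741) and Six2 did (limma adjusted p = 0.00727). Rescaling without the 100 most abundant genes raised the median of all genes by 0.57 on the log2 scale and changed no member's call. For Six2, Eya2 and Eya3 the sign of the log2 difference from the threshold was not stable, whereas Six5 stayed below it in each alternative that gave a value and passed as below at 5 TPM (limma adjusted p = 0.0346). With a pseudocount of 0.01 it was -0.46 for Six2, -0.98 for Eya2 and -0.77 for Eya3. At 5 TPM it was -1.68, -2.16 and -1.97. Leaving out 1 replicate gave -0.54 to 2.53 for Six2, -1.84 to 1.81 for Eya2 and -1.15 to 2.09 for Eya3. Six5 gave no value without replicate 1, being at 0 in the rest. Of the 36 pairs of members, 31 to 34 kept their order when 1 replicate was left out, and 34 did by mean rank. The cause of these changes was not tested. No paired analysis was possible because the 3 libraries form 1 group. Depth is unknown, so absence below the listed levels cannot be stated.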
